A study of Mus musculus with 2 samples.

Results

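The genes of 9 surface proteins through which macrophages talk to lymphocytes were followed at the RNA level: the costimulatory receptor and ligand genes Cd40, Cd80, Cd86 and Cd83, the checkpoint and related ligand genes Cd274, Pdcd1lg2 and Icosl, and the adhesion ligand genes Icam1 and Vcam1. They were chosen by name and not by a rule on measured values, though earlier results of these data were known. All 9 were found among the 55536 annotated genes of the deposited tables, each as 1 gene identifier. The RNA came from the cytosolic fraction of C57BL/6J mouse macrophages that had been grown from bone marrow and then exposed for 75 minutes to lipid A at 100 ng/ml. It was total RNA from which ribosomal RNA had been removed, with 1 µg taken per library, and it was sequenced as 2 libraries of 1 group, called replicate 1 and replicate 2 after the labels' biological replicate numbers. Both libraries carry the same donor identifier and no source states separate animals or cultures, so the SDs may in part be technical. Sex and age were not recorded. Unstimulated cells, further time points and the remaining fractions were not analysed here, so the values are levels after lipid A and not changes caused by it.

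Lipid A is the membrane anchor of bacterial lipopolysaccharide, and Toll-like receptor 4 senses it. Signalling from that receptor through NF-kappa-B and interferons is known to turn on many of these genes in macrophages. CD80 and CD86 bind CD28 on T cells and give the second signal that antigen alone does not supply, while their other receptor, CTLA-4, restrains the T cell. PD-L1 and PD-L2, encoded by Cd274 and Pdcd1lg2, bind the inhibitory receptor PD-1. ICOS ligand binds ICOS, CD40 receives the CD40 ligand of helper T cells, and ICAM-1 and VCAM-1 hold leukocytes through integrins.

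Of the 9 genes, 8 reached a mean of 1 TPM (a level corrected for transcript length and scaled to the same total in each library), against 39.3% of the 22028 annotated protein-coding genes. Their median level was 15.65 TPM. Over all protein-coding genes the median was 0.11 TPM, and over the 8657 at 1 TPM or more it was 6.14 TPM. From the highest level down, the order was Cd83, Icam1, Cd274, Cd40, Vcam1, Cd86, Cd80, Icosl and Pdcd1lg2. Only Vcam1 and Cd86 had overlapping ranges among neighbours in this order: Cd86 was the higher in replicate 1 and Vcam1 in replicate 2. Because these are bulk libraries, a lower level in fewer cells and a lower level in every cell cannot be told apart.

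**Figure D1:**
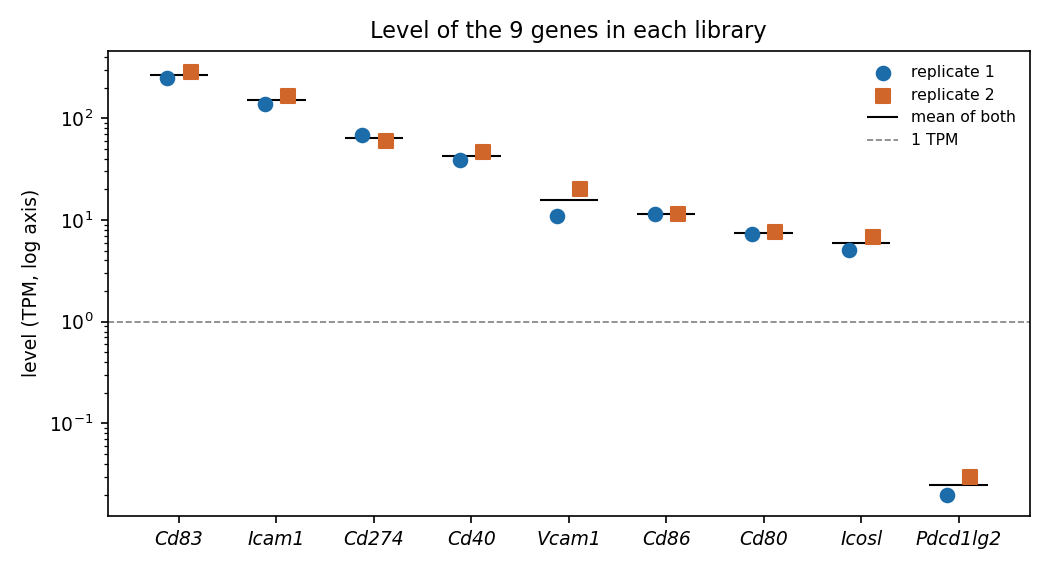
Level of each gene in each library, in TPM on a log axis, with the genes ordered by mean level. Circles are replicate 1, squares replicate 2, black bars the mean of both, and the dashed line marks 1 TPM; 8 genes lie above it in both libraries and Pdcd1lg2 lies far below it.

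Among the costimulatory genes, Cd83 stood highest. It encodes an immunoglobulin-family surface protein that marks activated antigen-presenting cells and keeps MHC class II and CD86 at the surface. Cd83 (chr13:43784775-43803132, plus strand, mm10) had 251 TPM in replicate 1 and 286 TPM in replicate 2, a mean of 268 ± 24.9 TPM (SD, n = 2), which ranked 114 among the protein-coding genes. Both libraries were high, and their spread was small beside the gap to Icam1, which it exceeded 1.804-fold in replicate 1 and 1.74-fold in replicate 2. Most of this level was assigned to a transcript annotated as non-coding, as described with the transcripts further on.

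Cd40 encodes the receptor through which helper T cells license macrophages and dendritic cells. Cd40 (chr2:165055627-165072948, plus strand) had 38.9 TPM in replicate 1 and 47.1 TPM in replicate 2 (43.0 ± 5.81 TPM, SD, n = 2; rank 771). Cd86 and Cd80, the B7 ligands of CD28 and CTLA-4, were lower. Cd86 (chr16:36603869-36666081, minus strand) had 11.5 TPM in replicate 1 and 11.4 TPM in replicate 2, the smallest spread of the 8 genes at 1 TPM or more (11.5 ± 0.0919 TPM, SD, n = 2). Cd80 (chr16:38455561-38496335, plus strand) had 7.23 TPM in replicate 1 and 7.55 TPM in replicate 2 (7.39 ± 0.226 TPM, SD, n = 2). The order of the 2 B7 genes was the same in both libraries. From counts per base, Cd86 exceeded Cd80 by 1.59-fold in replicate 1 (95% Clopper-Pearson interval 1.501 to 1.69) and by 1.51-fold in replicate 2 (1.42 to 1.61), and Cd40 exceeded Cd86 by 3.37-fold (3.23 to 3.53) and 4.13-fold (3.94 to 4.33). Such intervals cover counting error only. By the TPM of a second deposited quantification, Cd86 exceeded Cd80 by 1.32-fold in replicate 1 and 1.24-fold in replicate 2. There Cd40 exceeded Cd86 by 4.38-fold and 6.78-fold. The order was kept, but these ratios lie outside the intervals.

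The checkpoint ligands gave the widest contrast. Cd274, which encodes PD-L1, had 68.6 TPM in replicate 1 and 60.2 TPM in replicate 2 (64.4 ± 5.95 TPM, SD, n = 2; chr19:29367455-29388095, plus strand), the only one of the 4 highest genes that was lower in replicate 2. Pdcd1lg2, which encodes PD-L2 and begins 22823 bases downstream on the same strand (chr19:29410919-29471161), had 4 expected counts in each library and 0.02 and 0.03 TPM. PD-L1 is known to be made by many cell types under interferons and microbial products, whereas PD-L2 in macrophages is better known as a gene of interleukin-4 responses. From counts per base, Cd274 exceeded Pdcd1lg2 by 2844-fold in replicate 1 (95% Clopper-Pearson interval 1111 to 10438) and by 2101-fold in replicate 2 (820.3 to 7710.2). The width of these intervals comes from the 4 counts of Pdcd1lg2. Icosl, the ligand gene of ICOS (chr10:78069302-78083913, plus strand), had 5.08 TPM in replicate 1 and 6.84 TPM in replicate 2 (5.96 ± 1.24 TPM, SD, n = 2). It stood closest to Cd80, which exceeded it 1.42-fold in replicate 1 and 1.10-fold in replicate 2.

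The adhesion ligands were also far apart. Icam1 encodes the ligand of the leukocyte integrins LFA-1 and Mac-1 and is a well-known NF-kappa-B target. Icam1 (chr9:21015985-21028817, plus strand) had 139 TPM in replicate 1 and 164 TPM in replicate 2 (152 ± 18.0 TPM, SD, n = 2; rank 219). Vcam1, the ligand gene of the integrin VLA-4, best known from inflamed endothelium but also present in some macrophages, had 11.0 TPM in replicate 1 and 20.3 TPM in replicate 2 (15.65 ± 6.59 TPM, SD, n = 2; chr3:116109949-116129688, minus strand). From counts per base, Icam1 exceeded Vcam1 by 12.6-fold in replicate 1 (95% Clopper-Pearson interval 12.2 to 13.1) and by 8.09-fold in replicate 2 (7.88 to 8.31). Vcam1 differed more between the libraries than any other gene of the set with enough counts for a ratio.

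The sequences before the starts of Cd274 and Pdcd1lg2 are shown because these neighbouring genes lay furthest apart in level, and that of Icam1 because it is a well-known kappa-B-driven promoter. They are the 250 bases upstream of the RefSeq start on GRCm38.p6, plus strand: chr19:29367188-29367437 for Cd274, chr19:29410669-29410918 for Pdcd1lg2 and chr9:21015690-21015939 for Icam1. Promoters of 5 of the 9 genes were in the RefSeq table. Capitals mark matches to the kappa-B pattern GGNNNTTCC on either strand.
Cd274: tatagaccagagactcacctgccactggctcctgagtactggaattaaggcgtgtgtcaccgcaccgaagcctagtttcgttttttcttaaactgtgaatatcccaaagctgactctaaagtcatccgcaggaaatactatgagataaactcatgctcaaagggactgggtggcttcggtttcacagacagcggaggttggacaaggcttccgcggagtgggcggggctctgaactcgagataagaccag
Pdcd1lg2: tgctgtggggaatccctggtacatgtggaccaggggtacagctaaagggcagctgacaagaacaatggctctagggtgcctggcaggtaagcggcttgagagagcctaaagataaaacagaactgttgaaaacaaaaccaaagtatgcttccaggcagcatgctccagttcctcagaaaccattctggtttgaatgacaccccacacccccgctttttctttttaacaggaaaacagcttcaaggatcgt
Icam1: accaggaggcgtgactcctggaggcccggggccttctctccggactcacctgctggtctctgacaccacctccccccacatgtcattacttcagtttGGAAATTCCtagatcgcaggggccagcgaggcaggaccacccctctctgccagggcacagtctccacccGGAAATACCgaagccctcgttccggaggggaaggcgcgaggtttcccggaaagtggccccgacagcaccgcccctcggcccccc
The Icam1 window held 2 such matches and the Cd274 and Pdcd1lg2 windows none. Of the remaining windows, that of Cd80 held 1 and that of Icosl none, and 15.7% of 32851 promoters of the same length held at least 1. The pattern is 1 form of the element, and the Pdcd1lg2 window holds another, ggggaatccc, which it misses. The short core of interferon regulatory factors, AANNGAAA, held by 21.3% of all promoters, matched once in the Cd274 window, once in that of Pdcd1lg2 and not in that of Icam1. It was taken up after a longer form of the element had matched in none of the 3 windows. The STAT pattern TTCNNNGAA, held by 7.02% of all promoters, matched once in the Icam1 window and in neither of the others. Matches to these patterns are not marked. A match is a run of letters, not a shown binding site, and a window without one says nothing of sites elsewhere.

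Between the libraries, most of the genes stayed close. Ratios of replicate 2 to replicate 1 were taken from scaled expected counts where a gene averaged at least 10 counts, which Pdcd1lg2 did not. Of the 8 measured genes, 1 was over 1.5-fold apart, beside 14.0% of all 13392 measured genes and 3.38% of the 5509 with a mean count of 1000 or more, the range in which all 8 lay. That gene was Vcam1, with 3764 scaled counts in replicate 1 and 6591 in replicate 2, a ratio of 1.75 (95% Clopper-Pearson interval 1.68 to 1.82). Icosl followed at 1.252 (1.17 to 1.34), then Cd40 at 1.14, Icam1 at 1.14, Cd83 at 1.11 and Cd80 at 1.02. Cd86 at 0.951 and Cd274 at 0.845 (0.829 to 0.860) were lower in replicate 2. The median log2 ratio of the 8 genes was 0.17, beside -0.0045 for all measured genes. With 2 libraries of 1 group there is no spread against which to test a single gene, so no p-value is given, and the edgeR common dispersion over all measured genes gave a biological coefficient of variation of 0.176. Despite its name, this coefficient may in part be technical, because both libraries carry the same donor identifier.

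**Figure D2:**
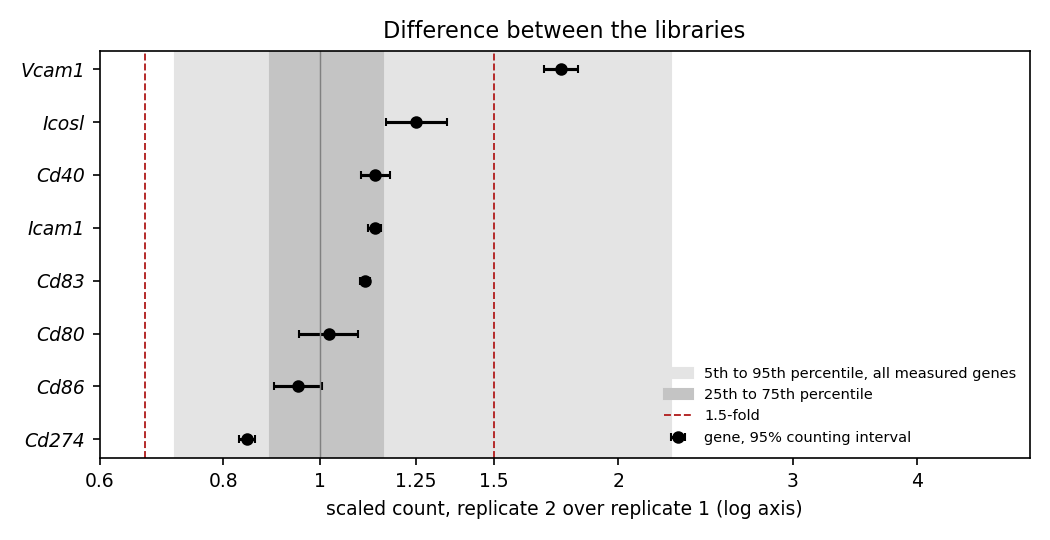
Ratio of scaled counts, replicate 2 over replicate 1, on a log axis for the 8 measured genes, with 95% Clopper-Pearson counting intervals. Light and dark shading span the 5th to 95th and the 25th to 75th percentiles of all 13392 measured genes and dashed lines mark 1.5-fold; Vcam1 alone lies beyond a dashed line.

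Other RNAs were higher in the same library as Vcam1. Markers of dendritic cells, 2 of 10 at 1 TPM or more, summed to 3.23 TPM in replicate 1 and 4.84 TPM in replicate 2. Of the 10, 5 were over 1.5-fold higher in replicate 2, beside 10.5% of all measured genes. Of these 5, Flt3, Clec9a, Siglech and Dpp4 had at most 59 counts in either library, and the Clec9a interval (0.984 to 4.35) included 1. The remaining gene, Ccr7, had 145 and 230 counts and a ratio of 1.81 (1.47 to 2.25). Xcr1, with 239 and 150 counts, went the other way, with a ratio of 0.719 (0.582 to 0.885). Genes with few counts were apart more often. The share over 1.5-fold apart in either direction was 14.0% of all measured genes and 5.01% at a mean count of 100 or more. The share among genes with counts as low as those of Flt3, Clec9a, Siglech and Dpp4 was not computed. Of the 5 neutrophil markers with enough counts, 3 were over 1.5-fold higher in replicate 2. They were Mpo at 3.15-fold (20 and 56 counts), Ltf at 2.73-fold (74 and 177) and Ngp at 1.92-fold (180 and 302). S100a8 and S100a9, the highest of these markers in TPM, had ratios of 0.876 and 0.986. The 10 macrophage markers had a median log2 ratio of 0.32, with 1, Itgam, over 1.5-fold higher. Markers of endothelial and stromal cells, 3 of 12 at 1 TPM or more (Vwf, Sele and Kdr), summed to 9.80 and 12.9 TPM. In replicate 1 and replicate 2, Vwf had 5.16 and 7.0 TPM, Sele 2.74 and 3.9 TPM and Kdr 1.42 and 1.55 TPM. Pecam1 and Cdh5 had means of 0.18 and 0.085 TPM, and Col3a1 had 0 counts in both libraries. The nuclear RNAs Malat1, Neat1 and Xist were 4.68-fold, 4.06-fold and 4.76-fold higher in replicate 2. The part of these differences in the Vcam1 ratio was not tested.

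At the transcript level, 7 genes had more than 1 annotated transcript and a mean count of 100 or more, and all 7 had the same leading transcript in both libraries, beside 95.6% of 8997 such genes. The 9 genes have 29 annotated transcripts, 18 of them protein-coding. Cd274 has a single transcript, and for Cd86 the transcript Cd86-201 held 96.1% in replicate 1 and 96.3% in replicate 2. Icam1-201 held 99.1% and 97.4% of the Icam1 count. Cd83, Cd40, Cd80, Icosl and Vcam1 were divided.

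**Figure D3:**
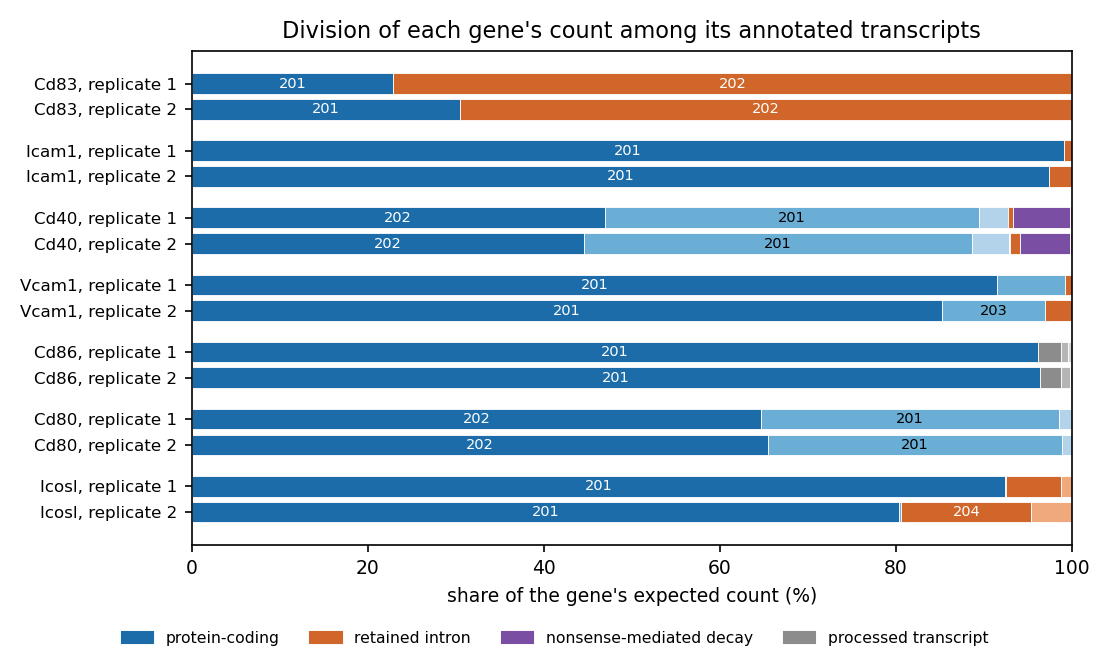
Share of each gene's expected count in each of its annotated transcripts, in percent, by library, for the 7 genes with several transcripts and enough counts. Blue is protein-coding, orange retained intron, purple nonsense-mediated decay and grey processed transcript, with the transcript number written in segments of at least 8%; Cd83 is the gene whose bars are mostly orange.

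For Cd83, Cd83-202, annotated as a retained-intron transcript without a coding region, held 77.2% of the Cd83 count in replicate 1 (95% Clopper-Pearson interval 76.8 to 77.5) and 69.6% in replicate 2 (69.2 to 69.9). The coding transcript Cd83-201 held 22.8% and 30.4%. The second deposited quantification, made directly from the reads, gave Cd83-202 70.7% and 60.8%. A leading transcript not annotated as protein-coding in both libraries was found in 2.08% of 8997 genes, and a retained-intron share over 50 percent in both libraries in 2.05% of 2391 genes compared. Cd83-202 keeps the first intron of Cd83-201, 95 bases long (chr13:43785251-43785345, plus strand, mm10), starts 410 bases further downstream and shares 2063 bases with Cd83-201. The GENCODE M21 sequences are shown around that intron, which is in capitals and which tells the transcripts apart:
Cd83-202: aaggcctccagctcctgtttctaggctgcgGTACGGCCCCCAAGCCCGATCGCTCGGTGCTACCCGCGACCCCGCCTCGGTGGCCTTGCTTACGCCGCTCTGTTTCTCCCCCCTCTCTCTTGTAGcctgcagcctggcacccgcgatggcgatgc
Cd83-201: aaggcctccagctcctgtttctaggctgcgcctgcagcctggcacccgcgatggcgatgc
The capitals open with the gt and close with the ag of an intron. Read from the start codon annotated for Cd83-201, Cd83-202 meets a stop codon after 43 codons, and that stop, tag, is formed by the last bases of the kept intron, whereas Cd83-201 codes for 196 amino acids. Scaled counts of Cd83-202 were alike in the libraries, with a ratio of replicate 2 to replicate 1 of 1.00, and those of Cd83-201 had a ratio of 1.48. Counted over protein-coding transcripts alone, Cd83 had 50.8 TPM in replicate 1 and 78.05 TPM in replicate 2 (64.4 ± 19.3 TPM, SD, n = 2), a range that overlapped that of Cd274, and Icam1 stood highest at 148 ± 15.5 TPM. The division between the transcripts rests on the 95 bases found only in Cd83-202 and the 414 found only in Cd83-201. The posterior SD deposited by the authors for the Cd83-202 count was 0.551% and 0.638% of it. Read coverage along the gene was not analysed here.

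By count, Cd40 was divided mainly between 2 coding transcripts. In replicate 1 Cd40-202 held 46.9% and Cd40-201 42.5% of the count, and in replicate 2 they held 44.6% and 44.1%. In the second quantification Cd40-202 held 51.9% and 47.7%, and Cd40-201 28.6% and 28.5%. By the TPM of the first quantification, which allows for their lengths of 1596 and 2986 bases, Cd40-202 had 50.2% and 46.5% of the Cd40 level and Cd40-201 22.6% and 22.9%. The short coding transcript Cd40-203 had 10.8% and 13.5% on that measure. By the TPM of the second quantification Cd40-202 had 43.7% and 33.3%, and Cd40-201 11.9% and 9.92%. There Cd40-201 was below both Cd40-207 (15.7% and 10.6%) and Cd40-203 (12.2% and 13.0%). Cd40-201 and Cd40-202 differ in 1 coding exon, the seventh of the 9 in Cd40-201, which has 87 bases (chr2:165069629-165069715, plus strand) and is absent from Cd40-202. They also differ in the first exon (132 and 123 bases) and the last (2227 and 933 bases). Their division therefore rests on the length of the last exon as well as on the 87 bases. It does not measure how often the seventh exon is left out. Read coverage along Cd40 was not analysed here. Cd40-207, annotated for nonsense-mediated decay, held 6.48% and 5.70%, and 11.3% and 9.37% in the second quantification. It keeps the seventh exon and also the 101 bases of the intron after it (chr2:165069716-165069816). The stretch is shown with the exon in capitals in Cd40-201, the direct junction in Cd40-202 and the intron in capitals in Cd40-207:
Cd40-201: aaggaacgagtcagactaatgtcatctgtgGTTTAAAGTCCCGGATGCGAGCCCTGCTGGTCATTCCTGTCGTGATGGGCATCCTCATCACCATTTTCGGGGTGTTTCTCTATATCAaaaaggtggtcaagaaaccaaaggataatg
Cd40-202: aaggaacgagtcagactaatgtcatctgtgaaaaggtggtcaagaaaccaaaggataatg
Cd40-207: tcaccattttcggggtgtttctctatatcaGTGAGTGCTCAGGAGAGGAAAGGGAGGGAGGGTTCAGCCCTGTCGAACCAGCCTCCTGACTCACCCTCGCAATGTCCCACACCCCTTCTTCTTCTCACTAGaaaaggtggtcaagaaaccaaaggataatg
Leaving out the exon removes 29 codons and keeps the frame, so the annotated coding lengths are 289 codons in Cd40-201 and 260 in Cd40-202. The most hydrophobic window of 19 codons in Cd40-201, past the first 30 codons that hold the signal peptide, lay at codons 195 to 213 and wholly within this exon, with a mean Kyte-Doolittle hydropathy of 2.86. In Cd40-202 the highest window reached 0.558. A hydrophobic run of this kind is the usual mark of a segment that spans the membrane. Whether protein is made from either transcript was not measured.

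**Figure D4:**
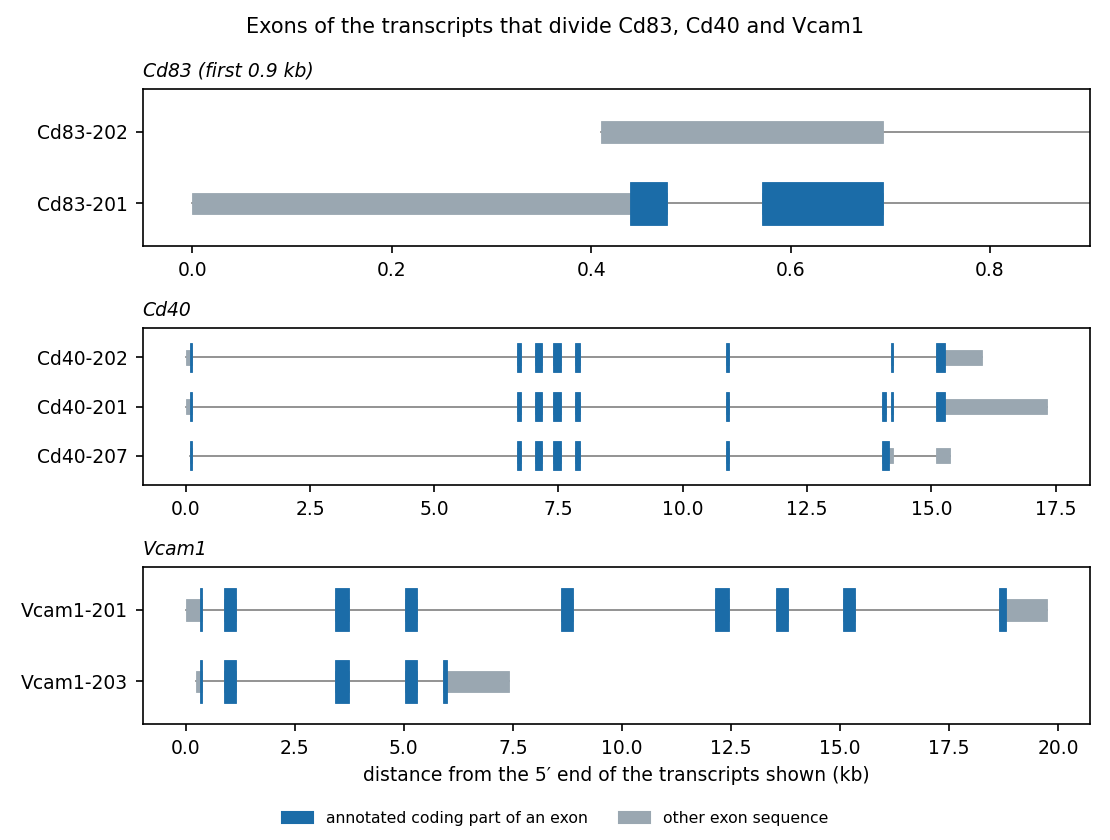
Exons of the main transcripts of Cd83, Cd40 and Vcam1, drawn by distance in kb from the 5′ end of the transcripts shown in each panel, with the annotated coding parts as tall blue boxes and other exon sequence as low grey boxes. Cd83-202 fills the 95-base gap between the first exons of Cd83-201, Cd40-202 lacks 1 exon, and Vcam1-203 ends early in an exon of its own.

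Vcam1-201, the long coding transcript, held 91.5% and 85.3% of the Vcam1 count in replicate 1 and replicate 2. The short coding transcript Vcam1-203 held 7.73% and 11.7%, or 1.16 TPM in replicate 1 and 3.19 TPM in replicate 2. In scaled counts Vcam1-201 had a ratio of replicate 2 to replicate 1 of 1.63 and Vcam1-203 of 2.64. Mouse VCAM-1 is known in a long form that spans the membrane and a short form held by a lipid anchor. Vcam1-203 codes for 345 amino acids and Vcam1-201 for 739, and Vcam1-203 ends in an exon of 1514 bases that Vcam1-201 lacks. The point where they part is shown, with the coding end of the Vcam1-203 exon in capitals (chr3:116123684-116123793, minus strand) and the same number of bases of the next Vcam1-201 exon in capitals (chr3:116120964-116121073, minus strand):
Vcam1-203: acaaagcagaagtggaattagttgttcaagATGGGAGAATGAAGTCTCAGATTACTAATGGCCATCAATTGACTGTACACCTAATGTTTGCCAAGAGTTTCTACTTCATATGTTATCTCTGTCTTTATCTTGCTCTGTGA
Vcam1-201: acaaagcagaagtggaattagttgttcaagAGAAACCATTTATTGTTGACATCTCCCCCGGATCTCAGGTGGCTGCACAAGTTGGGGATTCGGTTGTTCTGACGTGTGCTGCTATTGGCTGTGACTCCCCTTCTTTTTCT
The most hydrophobic window of 19 codons in Vcam1-203 was its last, codons 327 to 345, with a mean hydropathy of 1.78, and in Vcam1-201 it lay at codons 699 to 717 of 739, with a mean of 2.21.

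Cd80 was divided between Cd80-202, with 64.7% and 65.4% of the Cd80 count in replicate 1 and replicate 2, and Cd80-201, with 33.8% and 33.5%. By TPM, which allows for the greater length of Cd80-202 (3173 bases, against 1701 for Cd80-201), Cd80-201 led with 48.0% and 48.3%, and Cd80-202 had 46.1% and 47.3%. Which Cd80 transcript led therefore depended on the measure. Of the Icosl count, Icosl-201 held 92.4% in replicate 1 and 80.4% in replicate 2. The retained-intron transcript Icosl-204 held 6.27% and 14.7%.

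Of the 5 genes with an annotated retained-intron transcript, Cd40, Icosl, Icam1 and Vcam1 had a higher share of such transcripts in replicate 2, and Cd83 a lower one. The Icosl share was 7.45% in replicate 1 (95% Clopper-Pearson interval 6.18 to 8.90) and 19.4% in replicate 2 (17.5 to 21.3), a ratio of 2.60. The Icam1 share was 0.872% and 2.56%, a ratio of 2.94. For Vcam1 it was 0.787% and 2.996%, a ratio of 3.81, and for Cd40 0.559% and 1.19%, a ratio of 2.13. The second quantification put the Cd40 share at 2.73% and 4.85%, a ratio of 1.78. All 4 ratios exceeded 1.5. Counting intervals leave out the uncertainty in assigning reads to transcripts: the deposited posterior SD for Icosl-204 was 35.0% (replicate 1) and 16.7% (replicate 2) of its count, and 25.8% and 15.2% for the retained-intron transcript of Cd40. Over the 2391 genes compared, 81.1% had a higher share in replicate 2 and 58.2% a share over 1.5-fold higher, with a median ratio of 1.802, so a higher share in 4 of 5 genes is near the background. The Cd83 ratio was 0.902, with Malat1 4.68-fold higher in the same library. The part of the nuclear RNAs in these shares was not tested.

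**Figure D5:**
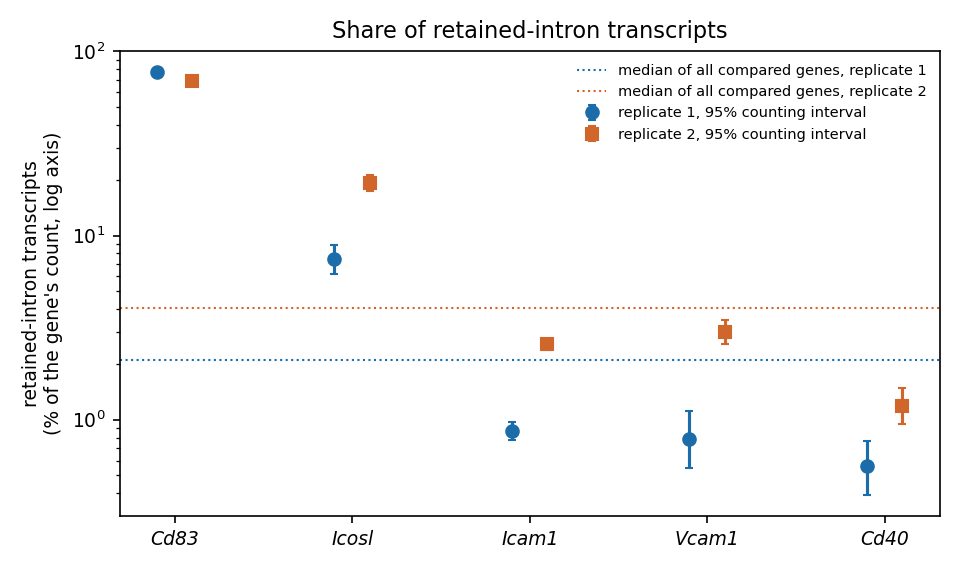
Retained-intron transcripts as a share of each gene's expected count, in percent on a log axis, for the 5 genes that have one. Circles are replicate 1 and squares replicate 2 with 95% Clopper-Pearson counting intervals, and dotted lines are the medians of the 2391 genes compared, 2.10% in replicate 1 and 4.03% in replicate 2; Cd83 lies far above the lines and is the only gene lower in replicate 2.

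Genes that overlap or adjoin the 9 could exchange reads with them, because the sources used here do not give the strand used in counting. The antisense gene AC119228.1 within Cd274 had 457 counts in replicate 1 and 1015 in replicate 2, beside 27102 and 20003 for Cd274. Gm47079, antisense to the end of Icam1, had 20.7 and 52.6 counts, beside 37285 and 37007 for Icam1. A930007I19Rik, antisense to the end of Pdcd1lg2, had 41 and 45 counts, more than the 4 of Pdcd1lg2 itself. Gm43109 at Vcam1 had 0 and 1. Plgrkt, a plasminogen receptor gene that starts 65 bases from Cd274 on the other strand, had 14.9 and 15.5 TPM, and Icam4 and Icam5 beside Icam1 had at most 0.06 TPM. Mir1900, also beside Icam1, had 0 counts in both libraries. Within 5 kb of Cd80, Adprh had 7.35 and 7.88 TPM, Timmdc1 2.6 and 2.19 TPM and D930030I03Rik, annotated as antisense, 0.51 and 0.53 TPM.

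Among the partners on lymphocytes, Cd28 was the exception. Of the 5 receptor and ligand genes that pair with these proteins on T cells, Cd28 had 63.3 TPM in replicate 1 and 72.5 TPM in replicate 2 (67.9 ± 6.52 TPM, SD, n = 2), while Ctla4, Icos, Pdcd1 and Cd40lg had at most 0.05 TPM in either library. The coding transcript Cd28-201 held 99.996% and 99.97% of the Cd28 count. Markers of T and NK cells had 0 of 10 genes at 1 TPM and summed to 0.11 TPM in replicate 1 and 0.27 TPM in replicate 2, with Cd3g and Gzma at 0 counts in both, so the Cd28 level stood beside almost no RNA of the T-cell marker genes. Of the 8 integrin genes whose products bind ICAM-1 or VCAM-1, 7 reached 1 TPM, beside 39.3% of all protein-coding genes. Itgb1, the beta chain of VLA-4, had 99.4 ± 28.5 TPM, and Itga4, its alpha chain, 29.3 ± 0.318 TPM. Itgb2, the beta chain of LFA-1 and Mac-1, had 88.1 ± 29.3 TPM and Itgam 16.7 ± 5.39 TPM (SD, n = 2 each). Itgal, the alpha chain of LFA-1, had only 0.99 TPM in replicate 1 and 1.41 TPM in replicate 2. Itgax and Itgb7 were also near the threshold, with means of 1.045 and 1.04 TPM. Itgad, the member with a mean below 1 TPM, had 0.06 TPM.

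Compared with genes of related ligands and receptors, the 9 genes were not the highest. Of 16 other B7-family and checkpoint genes listed, ligands and receptors together, 15 were found and 11 reached 1 TPM, beside 39.3% of all protein-coding genes. They were led by Sirpa, the receptor of the "do not eat me" signal CD47 (434 ± 85.9 TPM). H2-T23, the Qa-1 gene that engages NKG2A, had 73.2 ± 10.03 TPM, Lgals9, a ligand of TIM-3, 57.7 ± 4.60 TPM and Cd47 56.9 ± 4.42 TPM. Of 9 other costimulatory ligand genes 6 did, led by Tnfsf9, the 4-1BB ligand gene, at 444 ± 47.7 TPM, above Cd83 in both libraries. Cd48 had 48.5 ± 4.73 TPM, Tnfsf4, the OX40 ligand gene, 9.24 ± 3.37 TPM and Tnfsf14 3.55 ± 0.700 TPM (SD, n = 2 each).

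The libraries held 55596625 and 50157146 expected counts over annotated genes in replicate 1 and replicate 2. The labelled cell type was checked by markers: all 10 macrophage genes reached 1 TPM, with sums of 6685 and 7049.7 TPM, while B-cell markers (1 of 8, Ighm) summed to 3.05 and 2.79 TPM and neutrophil markers (3 of 10, S100a9, S100a8 and Ngp) to 29.5 and 31.2 TPM. The 7SL RNA genes Rn7s1 and Rn7s2 took 69.8% and 60.5% of all TPM, so TPM of every other gene is compressed by their share. Rescaled over the nuclear-encoded protein-coding genes, the levels would read 1235 ± 104 TPM for Cd83 and 27.4 ± 5.49 TPM for Icosl (SD, n = 2 each).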

How the data were processed

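Total RNA depleted of ribosomal RNA from 2 libraries of 1 group was analysed. Each table was made on mm10 with annotation M21, per the deposited readme files, which also say that the gene table and 1 transcript table (the first quantification) rest on transcriptome alignments while the other transcript table (the second) was made straight from reads. Tools, versions and counting strand: not given in the sources used here.

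Expected counts are the authors' deposited estimates for each gene and transcript, without normalization, and can be fractional. TPM values were deposited by the authors, corrected for length, with an equal sum over every table. The gene table also held 26345 entries that name no annotated gene, holding 0.251% and 0.204% of all counts in replicate 1 and replicate 2. They entered neither library sizes nor comparisons.

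Expected counts were rounded and scaled by TMM in edgeR 4.0.16 under R 4.3.3, over genes that averaged at least 10 counts. Its common dispersion came from an intercept-only fit. Ratios are replicate 2 over replicate 1 with 0.5 added to scaled counts, and carry 95% Clopper-Pearson intervals, as shares do. Both cover counting error only, as sequenced fragments can share a source molecule. DESeq2 1.42.0 gave alternative size factors. Retained-intron shares were compared where a protein-coding gene averaged at least 20 counts in such transcripts and 100 in all. Coordinates and transcript sequences are from GENCODE M21 on mm10, promoters from RefSeq on GRCm38.p6. The rest was done in Python 3.11.15 (scipy 1.17.1, pandas 2.3.3, numpy 2.4.6) and drawn with matplotlib 3.10.9.

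With 1 group of 2 libraries groups could not be tested against each other and there are no p-values. The 9 genes and all lists were chosen with earlier results of these data known. Named are the 9 genes, their transcripts with 5 percent or more of the count, the genes that overlap or adjoin them, up to 4 of the most abundant genes of each other list and its members below 1 TPM where these were 5 or fewer. The nuclear RNAs, the 7SL genes, the marker genes named, Itgal, Itgax and Itgb7 were chosen after their values were seen.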

Additional observations from a re-analysis of the deposited data

How the results depend on the processing

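The number of genes at 1 TPM or more was 8 under the second quantification, the rescaled and posterior mean TPM and the thresholds of 0.5 and 5 TPM, and between 8 and 8 with either library left out. The median level moved to 6.64 TPM in the second quantification and to 71.9 TPM over nuclear-encoded protein-coding genes, and ranged from 11.5 to 20.3 TPM with one library left out. Leaving out a library kept between 7 and 9 genes at their place in the order. In replicate 2 of the second quantification Cd40 was above Cd274. The share of all genes over 1.5-fold apart was 37.0% with no filter, 24.2% in the second quantification, 5.01% at a mean count of 100 or more and 3.38% at 1000 or more, the last chosen after seeing the data. The median log2 ratio of the 8 genes was 0.090 in the second quantification. At 2-fold 0 of the 8 were apart (6.97% of all genes), and at the lower threshold tried 2 were (29.1%). Vcam1 was over 1.5-fold apart under each scaling, filter and added count tried. By total count and in the second quantification 5 of 8 genes were higher in replicate 2, otherwise 6. The causes were not tested. Among levels, ratios and shares of single genes, 52 of 173 alternative values moved by more than their error. Levels and shares with either library left out could not move by this rule, because each of 2 libraries lies within their SD of the mean. Levels rescaled over nuclear-encoded protein-coding genes moved because the scale itself changed. The count of 52 is therefore no measure of how robust the values are. The Cd80 ratio, 1.02 in the text, turned to 0.990 by total count and 0.969 in the second quantification. Ratios and the agreement of leading transcripts need both libraries, so none was left out there. No paired analysis was possible because there is 1 group. Depth limits Pdcd1lg2, with 4 counts a library.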

Other observations

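All genes found of the machinery around these proteins reached 1 TPM, beside 39.3% of all annotated protein-coding genes. All 13 listed genes of CD40 signalling reached 1 TPM. They were led by the NF-kappa-B subunit genes Rel (42.2 ± 6.70 TPM), Nfkb1 (38.8 ± 5.96 TPM), Nfkb2 (37.5 ± 3.05 TPM) and Rela (31.8 ± 0.368 TPM, SD, n = 2 each). Of the 13, 0 were over 1.5-fold apart between the libraries. The share was 14.0% of all measured genes and 5.01% of those with a mean count of 100 or more, the range in which all 13 lay. Of 8 listed genes that set the turnover of CD86 or PD-L1, 6 were found, and all 6 reached 1 TPM. Cmtm6, which shields PD-L1 from lysosomal decay, had 19.9 ± 1.87 TPM, and Spop and Stub1, which mark PD-L1 for degradation, had 15.8 ± 0.863 and 13.95 ± 0.933 TPM. March1, the ubiquitin ligase that removes CD86 from the surface, had 14.4 ± 1.17 TPM, beside 11.5 ± 0.0919 TPM for Cd86 itself.

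Of 14 other adhesion genes 4 reached 1 TPM, beside 39.3% of all protein-coding genes. They were Cd44, the hyaluronan receptor gene (124 ± 22.0 TPM), Alcam (43.8 ± 8.03 TPM), Selplg, the P-selectin ligand gene (41.7 ± 5.37 TPM), and Sele (3.32 ± 0.820 TPM). Icam1 was above all 4 in replicate 1 and replicate 2.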
